A study of Mus musculus with 4 samples.

Results

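The genes described here are 8 receptors of natural killer (NK) cells and of killer T cells, chosen by name: Ncr1, Klrk1, Klrd1, Klrc1, Klrb1c, Klre1, Klra2 and Klra5. They are 8 of the 27998 genes in the deposited count tables, and all 8 were present there. Their levels were followed over the cell clusters that the authors assigned to the cells of a mouse tumour and over the 4 libraries of the study.

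NK cells and cytotoxic T cells decide whether to kill a target by weighing activating receptors against inhibitory ones. NKp46 (Ncr1), NKG2D (Klrk1) and NKR-P1C (Klrb1c) are activating receptors, whereas CD94 (Klrd1) pairs with NKG2A (Klrc1) into an inhibitory receptor for the nonclassical class I molecule H2-T23. Ly49 receptors, encoded by the Klra genes, mostly read classical class I molecules, and all of these genes except Ncr1 lie in the NK gene complex on mouse chromosome 6.

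Wild-type 129S6 mice carrying a transplanted tumour were injected intraperitoneally with antibody, 200 µg at a time, on days 3, 6 and 9 after transplant. The control group got rat IgG2a as an isotype control, a second RMP1-14 against PD-1, another 9D9 against CTLA-4, and the last received RMP1-14 with 9D9 (the combination); these antibodies block inhibitory receptors of T cells. Live CD45+ cells, which are the leukocytes of the tumour, were sorted from the digested tissue and profiled by droplet-based single-cell RNA sequencing of transcript 3′ ends. There was 1 library per group, with the number of mice behind each not given in the sources used here, so no difference between groups has a replicate check and no p-value is given.

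A level is a gene's summed transcript count (unique molecular identifiers, UMIs) over the cells of a cluster, per 1000000 UMIs of that cluster (CPM). Values for the 4 libraries are given in the order control, PD-1, CTLA-4, combination. A share is the percentage of cells with at least 1 UMI, after each cell was thinned to 1000 UMIs where stated. The 95% intervals beside the values cover counting error only, since UMIs of the same cells and library are not independent samples. The 4 libraries held 14491 listed cells and 47589092 UMIs, with 11176246 to 13374294 UMIs and 3336 to 3945 cells per library. Any pair of libraries shared between 12 and 25 cell barcodes, at most 0.727% of a library.

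Clusters carry the authors' numbers and no names. Cluster 5 (993 cells, median 1611 UMIs) was NK cell-like: 7 of 9 NK markers outside the 8 receptors were seen in at least 10% of its cells, and Gzma and Txk stood among its 10 leading genes. Cluster 14 (165 cells, median 6035 UMIs) keeps its number, because granzyme genes (Gzmg, Gzmf, Gzmd, Gzme), Ctsg and the basophil protease gene Mcpt8 led it, with none of the NK markers in its top 10 and Itga2 at 0. It was set with cluster 5 for the NK side because the other 8 of the 9 NK markers were seen in at least 10% of its cells. The T cell side was clusters 3 (Cd4 among its leading genes), 6 (Cd7, Il7r), 8 (Cd8a, Cd8b1), 9 (cell cycle genes such as Rrm2) and 10 (Foxp3), 3829 cells in all with a median of 1932 UMIs. The clusters were made from the same expression values, so differences between them are descriptions of how the receptors are distributed.

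On mm10, with the GENCODE M21 annotation, Ncr1 (ENSMUSG00000062524) is at chr7:4337724-4345164 on the plus strand. The others, all protein coding like Ncr1, are on chromosome 6: Klrb1c (ENSMUSG00000030325) at chr6:128778485-128789215, Klre1 (ENSMUSG00000050241) at chr6:129577905-129585827, Klrd1 (ENSMUSG00000030165) at chr6:129591782-129598775 and Klrk1 (ENSMUSG00000030149) at chr6:129610323-129623864. Further along lie Klrc1 (ENSMUSG00000030167) at chr6:129666015-129678973, Klra5 (ENSMUSG00000030173) at chr6:129898996-129917650 and Klra2 (ENSMUSG00000030187) at chr6:131219223-131247362. Klrd1 and Klre1 are on the plus strand and the other 5 of chromosome 6 on the minus strand.

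The receptors contrasted in where they were found: Ncr1 was mostly in the NK clusters, Klrc1 was highest in a T cell cluster and Klra2 was mostly in myeloid cells. For these, the 250 bases before the RefSeq transcript start (the first listed where there are several) (GRCm38.p6) are shown 5′ to 3′ on the gene's own strand, so that the regulatory sequence of each pattern can be compared. The windows are chr7:4337465-4337714 (plus) for Ncr1, chr6:129678974-129679223 (minus) for Klrc1 and chr6:131247363-131247612 (minus) for Klra2. Capitals mark matches on either strand to 3 motifs: TGTGGT is the core bound by RUNX factors, TCACAC is a T-box site as bound by Eomes and T-bet, and GGAAGT is a core bound by ETS factors. On the reverse strand the first reads ACCACA in the printed letters, the second reads GTGTGA in them and the third would read ACTTCC there. No 2 of the matches overlap.
Ncr1: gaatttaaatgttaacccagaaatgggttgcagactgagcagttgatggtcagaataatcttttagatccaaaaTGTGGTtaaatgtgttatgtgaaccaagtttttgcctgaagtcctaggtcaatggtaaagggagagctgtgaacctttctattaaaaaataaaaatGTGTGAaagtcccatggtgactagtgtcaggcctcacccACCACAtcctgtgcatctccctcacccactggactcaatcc
Klrc1: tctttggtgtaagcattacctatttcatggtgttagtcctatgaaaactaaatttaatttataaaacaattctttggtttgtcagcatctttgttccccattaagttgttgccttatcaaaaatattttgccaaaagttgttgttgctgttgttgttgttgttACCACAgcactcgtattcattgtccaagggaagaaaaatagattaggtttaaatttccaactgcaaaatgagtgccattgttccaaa
Klra2: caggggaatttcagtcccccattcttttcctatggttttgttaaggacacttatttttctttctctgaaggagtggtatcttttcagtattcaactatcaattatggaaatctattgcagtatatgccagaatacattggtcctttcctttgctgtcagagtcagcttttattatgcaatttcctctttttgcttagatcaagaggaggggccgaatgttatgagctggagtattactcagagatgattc
The Ncr1 window held TGTGGT on both strands, with first bases at -176 and -41 from the start, and TCACAC on the reverse strand at -80. The Klrc1 window held TGTGGT on the reverse strand at -87, and the Klra2 window held none of these letters. Over 32851 mouse promoter windows of the same length, 14.0% held TGTGGT, 12.3% TCACAC and 19.7% GGAAGT on either strand. Such a match is a description of the letters in the window. RefSeq windows were listed for 7 of the 8 genes. Among the first-listed windows not printed, TGTGGT also occurred for Klrk1, Klrb1c and Klre1, and GGAAGT for Klrb1c. TCACAC occurred in none of these, but another listed Klre1 window held it on the reverse strand at -42. Klra5 had no match. The Klrb1c and Klre1 windows overlapped annotated exons of the same gene.

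Some of these genes have close copies, which limits what a 3′ count can tell. Of 403 windows of 98 bases (the read length) in the last 500 bases of Klrc1, 110 were identical to a Klrc2 transcript and all 403 were within 2 mismatches of one. The reverse did not hold for the longest coding Klrc2 transcript, whose windows had at least 44 mismatches to any other Klr transcript. UMIs of Klrc1 and Klrc2 thus cannot always be told apart with certainty. Klra5 windows had at least 3 mismatches to any other Klr transcript, and those of the other members at least 35. The 129 strains carry a Ly49 gene cluster that differs from that of the C57BL/6 reference, so UMIs assigned to Klra genes are uncertain too.

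**Figure D1:**
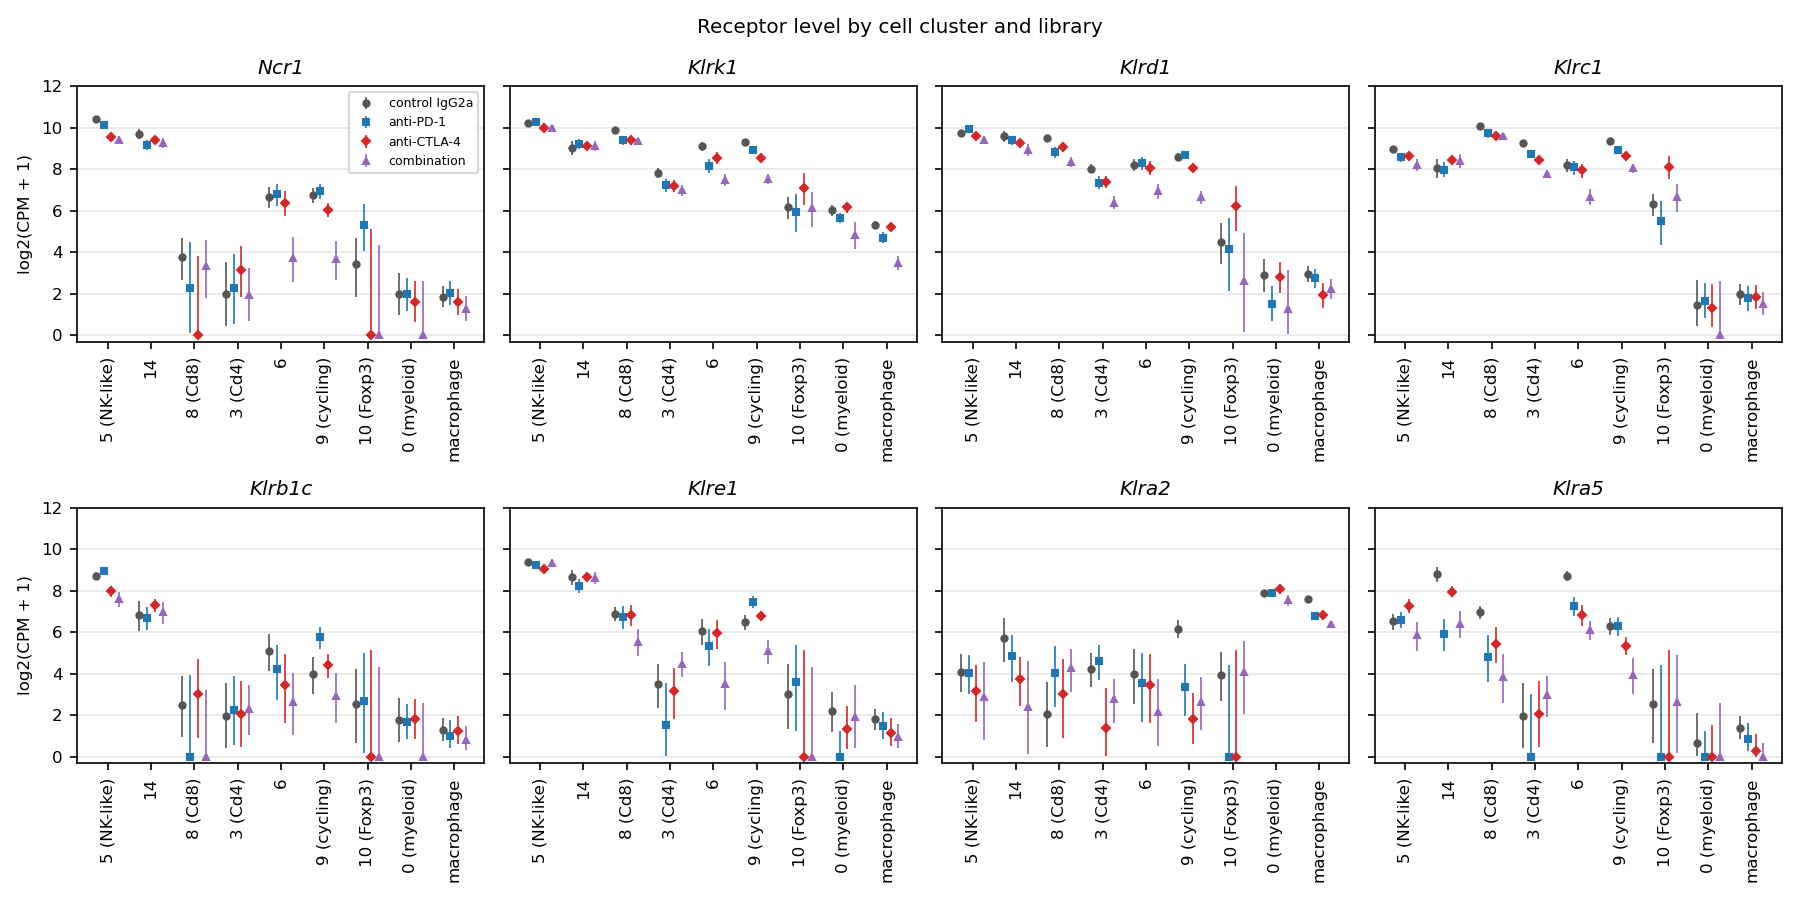
Level of each of the 8 receptors, as log2(CPM + 1), in each library, for 8 clusters (authors' numbers on the x axis) and the macrophage-like clusters together. Points are libraries and bars are 95% Poisson intervals of the count; Ncr1, Klrb1c and Klre1 stand out in clusters 5 and 14, Klrc1 peaks in cluster 8, and Klra2 is high in cluster 0 and the macrophage-like clusters.

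Among the activating receptors, Ncr1 and Klrb1c marked the NK clusters most sharply. Ncr1 in cluster 5 was 1357, 1113, 759 and 671 CPM in library order, and in cluster 14 it was 831, 574, 671 and 609 CPM. The ranges of these clusters overlapped each other and were apart from every other cluster: the next was cluster 13, which carries T cell and macrophage markers together, with 15.2 to 186 CPM. In the T cell clusters together Ncr1 was 43.4, 60.01, 42.4 and 7.66 CPM, and in the macrophage-like clusters (1, 2, 4, 7 and 15; 6056 cells, median 3595 UMIs) it was 1.41 to 3.06 CPM. Of all 3341 Ncr1 UMIs, 84.5% fell in clusters 5 and 14, 10.6% in the T cell clusters and 2.07% in macrophage-like cells and cluster 0.

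Klrb1c was the second receptor held mostly by the NK clusters, at a lower count. Its level in cluster 5 was 414, 489.6, 249.5 and 192 CPM in the same order of libraries, and in cluster 14 it was 102 to 156 CPM, below cluster 5 in every library. In T cells it was 10.2, 20.8, 12.4 and 4.00 CPM. Klrb1c UMIs numbered 1054 in all, of which 83.0% came from clusters 5 and 14. The annotation has Gm44511 overlapping Klrb1c on the same strand, so reads of the 2 genes may be exchanged.

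The share of cells with a UMI showed the same contrast once depth was made equal. After thinning to 1000 UMIs, Ncr1 was seen in 55.7% of cluster 5 cells, 2.02% of T cells and 0.339% of macrophage-like cells, which should lack it and so give the level of free RNA. Without thinning the shares were 69.9% in cluster 5 and 3.68% in T cells. Klrb1c was seen in 28.9% of thinned cluster 5 cells, 0.953% of T cells and 0.0679% of macrophage-like cells.

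Klrk1, which encodes NKG2D and signals through the adaptor encoded by Hcst, was the member with the most UMIs (7941) and was shared between NK and T cells. Cluster 5 was highest at 1180.5, 1236, 1006 and 996 CPM, the Cd8-led cluster 8 followed at 937, 665, 671 and 645 CPM, and cluster 14 came next at 517 to 594 CPM. The libraries of cluster 5 were apart from those of cluster 8, and those of cluster 8 from those of cluster 14. T cells held 44.3% of its UMIs, clusters 5 and 14 held 36.5% and macrophage-like cells with cluster 0 held 13.0%. It was seen in 65.0% of thinned cluster 5 cells and 22.7% of T cells.

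Klrd1, the CD94 chain, followed a similar order with less separation. Its level was 854, 966, 767 and 678 CPM in cluster 5, 772, 665, 607 and 486 CPM in cluster 14, and 730.3, 449.5, 533 and 321 CPM in cluster 8. Neighbours in this order overlapped. Of 5275 Klrd1 UMIs, 48.4% were in T cells and 45.2% in clusters 5 and 14, and the macrophage-like clusters stood at 2.80 to 6.73 CPM.

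Klrc1, the NKG2A partner of CD94, was the member with a T cell cluster on top. Cluster 8 had 1085, 840.4, 769.5 and 767 CPM, above every library of every other cluster. Cluster 9 (261 to 662 CPM), cluster 3 (220.0 to 611 CPM) and cluster 5 (293 to 496 CPM) overlapped one another below it. T cells held 75.5% of the 5720 Klrc1 UMIs and clusters 5 and 14 held 20.4%. In thinned cells Klrc1 was seen in 55.5% of cluster 8 and 26.2% of cluster 5, against 0.221% of macrophage-like cells. Klrc1 was the fourth of the leading genes of cluster 8.

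Klrc2, an activating relative of Klrc1 with a transcript close to it in sequence, was counted along with it. The ratio of Klrc2 to Klrc1 UMIs lay between 0.596 and 0.753 in clusters 5, 14, 3, 6, 8, 9 and 10, and 93.1% of the 1633 cells with a Klrc2 UMI also had a Klrc1 UMI. In clusters 3, 8 and 5, thinned Klrd1 was seen in a larger share of Klrc1-positive than of Klrc1-negative cells. In cluster 3 the shares were 21.6% of Klrc1-positive and 9.80% of Klrc1-negative cells. The corresponding values were 42.4% (interval 37.1 to 47.8%) and 32.5% (27.0 to 38.4%) in cluster 8. In cluster 5 they were 56.5% (49.8 to 62.9%) and 52.4% (48.5 to 56.3%). The intervals overlapped in clusters 8 and 5, which does not decide whether the shares differ, and the differences were not tested.

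Klre1, an NK-cell lectin-like receptor that pairs with other lectin-like chains, was intermediate. It was 663, 603, 529 and 639.8 CPM in cluster 5 and 299 to 404 CPM in cluster 14, with both ranges apart from each other and from clusters 9 (32.7 to 174 CPM) and 8 (45.3 to 116 CPM). Clusters 5 and 14 held 71.4% of its 2316 UMIs and T cells 24.1%. Thinned shares were 44.2% in cluster 5, 3.47% in T cells and 0.204% in macrophage-like cells.

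The Ly49 members, Klra5 (Ly49E) and Klra2 (Ly49B), were not restricted to the NK clusters. Klra5 was carried by few cells: in cluster 14 it was 438, 59.0, 245 and 84.6 CPM, and in the Cd7-led T cell cluster 6 it was 414, 153, 112 and 68.2 CPM. Cluster 5, with 90.6, 95.9, 155 and 56.7 CPM, overlapped both. In cluster 14, the 10 cells with the most Klra5 held 46.2% of its 221 UMIs, and the 67 UMIs of the control library came from 10 cells. In cluster 8, 47 of the 79 control UMIs of Klra5 came from 1 cell.

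Klra5 was most concentrated in the authors' separate clustering of lymphoid cells. There, its level in lymphoid cluster 6 (381 cells, of which 34 were in clusters 5 or 14) was 921, 296, 420 and 418 CPM (559 CPM over all libraries), and the next lymphoid cluster, number 10, had 203 CPM. Those cells carried Cd3g at 1260 CPM and Cd7 at 1002 CPM beside the inhibitory receptor gene Klra7 at 652 CPM, Klrk1 at 559 CPM, Klrd1 at 479 CPM and Ncr1 at 184 CPM. In cluster 5, the 92 cells with a Cd3d, Cd3e or Cd3g UMI had Klra5 at 291 CPM and the 901 cells without one had 73.3 CPM.

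Klra2 was a myeloid transcript in this tumour. Of its 5120 UMIs, 91.0% lay in macrophage-like cells and cluster 0, 2.52% in T cells and 0.918% in clusters 5 and 14. Cluster 0, a myeloid cluster of which Klra2 was the sixth leading gene, had 236, 237, 272 and 185 CPM, above the libraries of the macrophage-like cluster 4 (107 to 178 CPM). The control libraries of macrophage-like clusters 1 (207 CPM) and 7 (199 CPM) and the anti-CTLA-4 library of cluster 13 (209 CPM) lay above the lowest library of cluster 0. The neutrophil-like cluster 12 had a higher mean of 282 CPM, but 37 of the 48 UMIs of its highest library came from 1 cell. Klra2 was seen in 19.8% of thinned cells of cluster 0, 10.9% of macrophage-like cells, 0.813% of T cells and 0.452% of cluster 5.

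Setting the NK clusters (5 and 14) against the T cell clusters, 6 of the 8 receptors were at least 2-fold higher in the NK clusters and none was at least 2-fold lower. Among 10592 genes with at least 20 UMIs on both sides together, 7.1% were at least 2-fold higher and 11% at least 2-fold lower (18.1% either way). Klrb1c, Ncr1 and Klre1 were themselves among the 10 leading genes of cluster 5, so the count of 6 is a description of the clusters and not a test. Ncr1 averaged 891 CPM over the 4 libraries in NK clusters and 38.4 CPM in T cells, a 23.2-fold difference, and Klrb1c averaged 273 and 11.8 CPM, a 23.1-fold difference. Klre1 was 530.3 against 58.7 CPM (9.03-fold). These 3 were higher on the NK side in each of the 4 libraries, with log2 ratios of 3.98 to 6.39 for Ncr1, 4.04 to 5.35 for Klrb1c and 2.66 to 4.45 for Klre1.

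The receptors shared by both cell types differed less. Klrd1 was 749 CPM in NK clusters and 261 CPM in T cells (2.87-fold), Klrk1 920.2 and 353 CPM (2.61-fold) and Klra5 128 and 52.5 CPM (2.44-fold). Each was higher on the NK side in each library, with the lowest log2 ratio being 1.19 for Klrd1, 1.04 for Klrk1 and 0.68 for Klra5. Klrc1 was 367 CPM in NK clusters and 434 CPM in T cells, a log2 ratio of -0.24 whose counting interval on the summed UMIs was -0.31 to -0.12. Its sign changed with the library: it was -0.45, -0.37 and -0.13 in the first 3 and 0.15 in the combination. Klra2, at 14.5 and 12.8 CPM, did not differ beyond counting error (log2 0.18, interval on summed UMIs -0.30 to 0.71).

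The median log2 ratio of the 8 was 1.45, beside -0.05 for all genes. The Klra5 log2 ratio was 0.68, 0.71, 2.41 and 1.69 in library order, so its call depended on which libraries were kept. Without anti-CTLA-4, Klra5 was no longer past 2-fold and the count was 5. It was also 5 with cluster 5 alone as the NK side or with the lymphoid clustering. The Ncr1 and Klrb1c ratios grew to 5.40 and 5.53 on the log2 scale when cluster 9 was left out of the T cells, and Klre1 to 3.84.

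**Figure D2:**
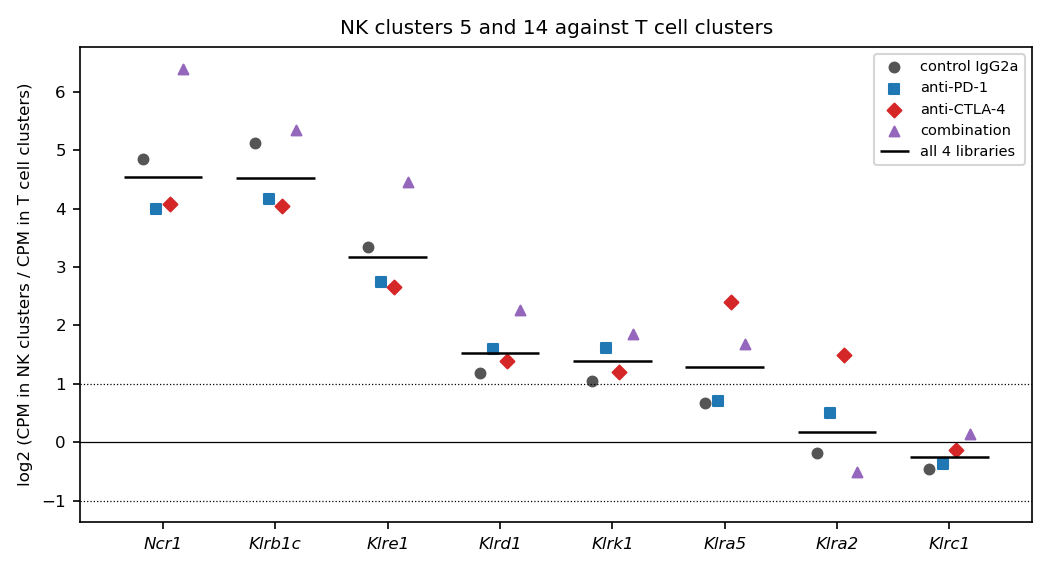
Log2 ratio of the level in NK clusters 5 and 14 to that in T cell clusters 3, 6, 8, 9 and 10, for each receptor. Points are the 4 libraries, the black line is the ratio of the 4-library means and the dotted lines mark 2-fold; Ncr1 and Klrb1c lie at 3.98 or above in every library, and Klrc1 and Klra2 lie on both sides of 0.

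Most Ncr1 counted in the T cell clusters came from cells in which no Cd3d, Cd3e or Cd3g UMI was detected. In the T cell clusters, the 133 cells without a Cd3d, Cd3e or Cd3g UMI held 208 of the 355 Ncr1 UMIs, at 503 CPM against 15.3 CPM in the 3696 cells with one. Of these 208 UMIs, 181 lay in the cycling cluster 9. Its 57 cells without a Cd3 UMI (11, 22, 21 and 3 per library; median 4819 UMIs) had them among the cluster's 224 Ncr1 UMIs, a level of 594 CPM, whereas its 534 cells with Cd3 (median 4860.5 UMIs) had 14.99 CPM.

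These Cd3-negative cells of cluster 9 also carried the other receptors held mostly by the NK clusters. Klre1 was 528 CPM in them and 51.6 CPM in the Cd3-positive cells, and Klrb1c was 174 and 5.20 CPM. Klrd1 was 712 against 230.4 CPM and Klrk1 732 against 369 CPM, while Klrc1 went the other way, at 318 against 449 CPM. No Klra2 UMI was found in the 57 cells. The granzyme gene Gzma was 9851 CPM in them and 784 CPM in the Cd3-positive cells, Tyrobp (the DAP12 adaptor of many NK receptors) was 1555 and 165 CPM, the NK transcription factor gene Eomes was 115 CPM and the proliferation gene Mki67 was 292 CPM. With NK and T cells split by Cd3 UMIs in this way, the NK to T ratios were 5.80 for Ncr1 and 5.71 for Klrb1c on the log2 scale.

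**Figure D3:**
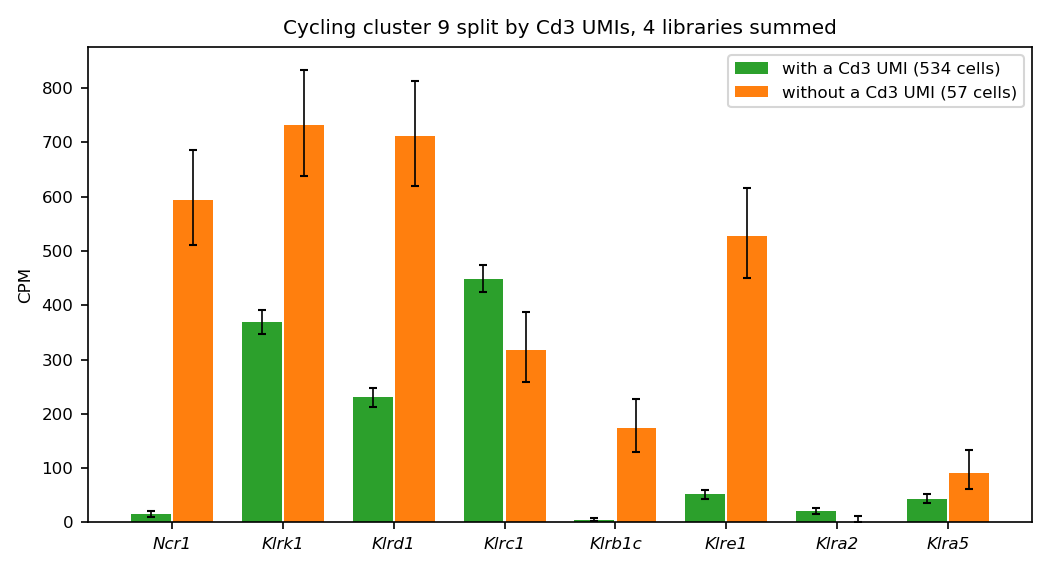
Level (CPM) of the receptors in the 534 cells of cycling cluster 9 with a Cd3 UMI and the 57 without, summed over the 4 libraries. Bars start at 0 and error bars are 95% Poisson intervals; Ncr1 is 14.99 CPM with Cd3 and 594 CPM without, and Klrc1 is the higher one in cells with Cd3 (449 against 318 CPM).

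Within T cells, most but not all of the receptors were higher in Cd8-expressing than in Cd4-expressing cells. Of the 7 receptors with at least 20 UMIs, 5 were at least 2-fold higher in cluster 8 (Cd8-led, 628 cells) than in cluster 3 (Cd4-led, 1215 cells) and none was 2-fold lower. Among 8397 genes, 4.1% were that much higher and 6.73% lower. Klrk1 averaged 729 against 161 CPM (log2 2.18), Klrd1 509 against 167 CPM (log2 1.61) and Klrc1 866 against 399 CPM (log2 1.12). Klre1 was 94.9 against 10.4 CPM (log2 3.19), and Klra5 was 51.7 against 3.23 CPM (log2 4.00), with the reservation on single cells given above. Ncr1 was near 0 in both, with 13 and 12 UMIs. Klra2 (log2 -0.13, from 16 and 31 UMIs) was not past 2-fold, and Klrb1c, with 5 and 10 UMIs, was under the minimum.

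The same 5 receptors were past 2-fold when single cells were sorted by their own Cd8 and Cd4 UMIs (Cd8a or Cd8b1 against Cd4). A Klrc1 UMI was found in 72.4% of the 1091 Cd8 cells and 30.5% of the 997 Cd4 cells, a Klrk1 UMI in 69.6 and 17.8%, and a Klrd1 UMI in 56.7 and 19.2%. Ncr1 was found in 1.28 and 0.903% of them. The regulatory-led cluster 10 was lowest of the T cell clusters for Klrd1 (5.24 to 73.4 CPM) and Klrk1 (61.2 to 138 CPM). Its Klrc1 was 44.5 to 275 CPM, and the highest library, anti-CTLA-4, had 30 UMIs.

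The next question was whether the checkpoint antibodies went with different receptor levels inside the NK cell-like cluster 5, which held 310, 301, 219 and 163 cells in library order. The 3 treated libraries are all set against the same control library, so their values are not independent of one another. Of 7 receptors with enough UMIs, none was past 2-fold with anti-PD-1, where 10.4% of genes were past 2-fold either way. None was with anti-CTLA-4 (11.9%), and 2 were lower with the combination, Ncr1 and Klrb1c (14.4% of genes either way, 9.89% lower).

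Ncr1 was lower in each treated library than in control: the 1357 CPM of control compared with 1113 (log2 ratio -0.29), 759 (-0.84, interval -1.02 to -0.66) and 671 CPM (-1.02, interval -1.24 to -0.80). Thinned Ncr1 shares in the same order were 67.1, 55.9, 44.9 and 44.4% of cells. Klrb1c, 414 CPM in control, was 489.6 with anti-PD-1 (log2 0.24), 249.5 with anti-CTLA-4 (-0.73, interval -1.05 to -0.41) and 192 CPM with the combination (-1.11, interval -1.53 to -0.70). Klrc1 was lower with the combination too (log2 -0.76, interval -1.11 to -0.42), short of 2-fold.

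Of the other receptors with at least 20 UMIs in cluster 5, none reached 2-fold. Klre1 with the combination was at -0.05 on the log2 scale (interval -0.30 to 0.20), Klrk1 at -0.25, Klrd1 at -0.33 and Klra5 at -0.67 (interval -1.53 to 0.11). Klra2, with 10 UMIs in control and 2 in the combination, was at -1.36 (interval -4.59 to 0.87). Klra5 was at 0.77 with anti-CTLA-4 (interval 0.26 to 1.30), but at 0.17 after thinning. The median log2 ratio of all genes was -0.02, -0.10 and -0.12 in the 3 comparisons. Macrophage markers summed over cluster 5 (11 genes, none at 0) were 5338 CPM in control and 1953, 3161 and 2509 CPM in the treated libraries, and 7 T cell markers were 268, 235, 463 and 495 CPM; their part in the result was not tested. The combination count fell to 1 after thinning (Ncr1 alone), with median-of-ratios scaling (Klrb1c alone) and in cells without a Cd3 UMI (Klrb1c alone).

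Cluster 14 shared part of this. Its Ncr1 was 831 CPM in control and 574, 671 and 609 CPM in the treated libraries, a combination ratio of -0.45 (interval -0.80 to -0.09), but its Klrb1c was 111 CPM in control and 123 CPM with the combination (interval of the log2 ratio -0.77 to 1.10). It held 26, 35, 70 and 34 cells.

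Summed over the T cell clusters, the combination library had less of every receptor. All 8 were at least 2-fold lower than in control, where 4.33% of 9208 genes were that much lower and 7.54% past 2-fold either way, and the median log2 ratio was -1.46, beside -0.03 for all genes. Ncr1 went from 43.4 to 7.66 CPM (log2 -2.50, interval -3.21 to -1.85). In cells with a Cd3 UMI its ratio was -1.498, and the Cd3-negative cells of cluster 9, which held 181 of the 355 Ncr1 UMIs of T cell clusters, numbered 11 in control and 3 in the combination. Klrd1 went from 368 to 124 CPM (-1.57, interval -1.74 to -1.40), Klrk1 from 508 to 223 CPM (-1.19, interval -1.32 to -1.05) and Klrc1 from 615 to 281 CPM (-1.13, interval -1.25 to -1.01). Klrb1c (-1.35), Klre1 (-1.32), Klra5 (-2.22) and Klra2 (-1.80) were lower as well. Klra2 depended on a single cell, which held 40 of the 48 control UMIs of cluster 9: without the cell with the most UMIs on each side its ratio was -0.85 and the count 7. It was also 7 with the 5 T cell clusters weighted equally (Klrc1 then missed 2-fold) and after thinning, where Klrb1c was further from control (-3.70) but fell under the minimum of 20 UMIs.

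**Figure D4:**
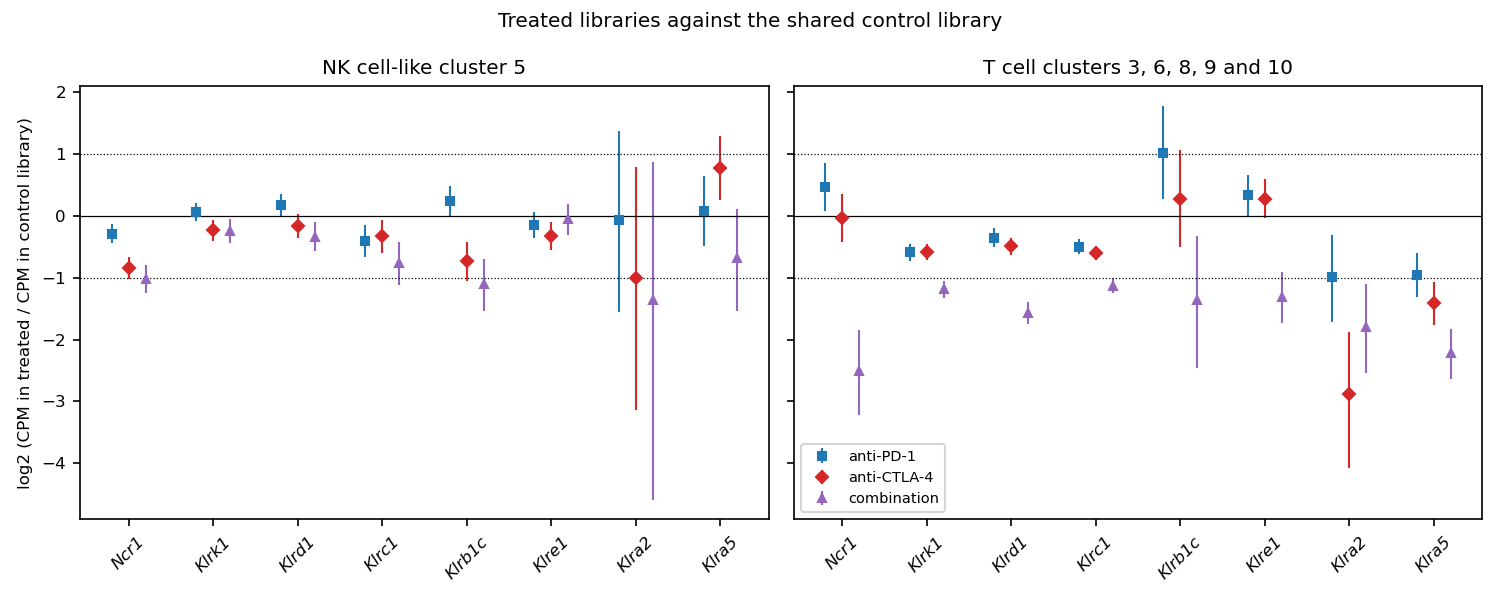
Log2 ratio of each treated library to the control library for each receptor, in NK cell-like cluster 5 and in the T cell clusters. Points are ratios and bars their 95% counting intervals, without any error between animals; all 8 receptors are at or below -1.13 in combination T cells, and of the 7 receptors with at least 20 UMIs in cluster 5, Ncr1 and Klrb1c are past -1 with the combination.

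Klrd1, Klrk1 and Klrc1 were each lower inside T cell clusters 3, 6, 8 and 9, though not to the same degree. In cluster 8, combination to control ratios on the log2 scale were -1.18 for Klrd1 (interval -1.47 to -0.91), -0.54 for Klrk1, -0.50 for Klrc1 and -1.35 for Klre1. In cluster 3 they were -1.65 for Klrd1, -1.47 for Klrc1 and -0.82 for Klrk1. In cluster 6 they were -1.63 for Klrk1, -1.51 for Klrc1 and -1.27 for Klrd1, and in cluster 9 -1.96 for Klrd1, -1.79 for Klrk1 and -1.34 for Klrc1. On small counts several values of the 8 receptors went the other way. Among them were Klrc1 in cluster 10 from 77.8 to 99.6 CPM on 32 and 19 UMIs, and Klre1 in cluster 3 from 10.3 to 21.3 CPM on 7 and 22 UMIs. Klra5 in cluster 3 went from 2.95 to 6.79 CPM on 2 and 7 UMIs, and Klra2 in cluster 8 from 3.13 to 18.1 CPM on 2 and 8 UMIs. In lymphoid cluster 6, where Klra5 was concentrated, Klra5 was lower (log2 -1.14, interval -1.65 to -0.66) and Klrk1 was at -0.67, but Klrd1 was 483 CPM in control and 457 CPM with the combination (-0.08, interval -0.61 to 0.43).

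Cells chosen by their own Cd8 UMIs gave the same direction. In Cd8 cells (411, 165, 237 and 278 per library) Klrd1 was 564, 438, 339 and 246 CPM, with a combination ratio of -1.20 (interval -1.44 to -0.96), and its share of cells was 68.6, 60, 56.5 and 37.4%. Klrk1 was 781, 619, 558 and 538 CPM and Klrc1 901, 753, 650.0 and 657 CPM, which are smaller differences. In Cd4 cells Klrc1 was 451, 381, 244 and 174 CPM, a combination ratio of -1.37 (interval -1.66 to -1.09). On small counts, 3 receptors were higher in Cd4 cells of the combination than of control. These were Ncr1 (3 UMIs in control and 8 in the combination), Klre1 (0 and 8) and Klra5 (2 and 4). The other receptors were lower there.

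The composition of the T cells moved too. Cluster 8 made up 22.9, 13.2, 11.8 and 15.3% of T cells in the 4 libraries, cluster 6 made up 18.4, 27.6, 24.3 and 32.6%, and cluster 9 made up 12.4, 15.5, 26.2 and 11.5%. Cd8 marker genes summed over T cells were 865, 536, 585 and 463 CPM. The within-cluster values above do not depend on these shares, but the makeup inside a cluster may also differ between libraries. In the lymphoid clustering, cluster 6 held 128, 99, 86 and 68 cells and cluster 1 held 70, 98, 101 and 369. The part of composition in the lower receptor levels was not tested.

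With either antibody alone, Klrk1, Klrc1 and Klrd1 in T cells differed less from control than with the combination. With anti-PD-1, Klrk1 was at -0.59, Klrc1 at -0.49 and Klrd1 at -0.35 on the log2 scale; with anti-CTLA-4 they were at -0.58, -0.60 and -0.49. With anti-PD-1 the 1 receptor past 2-fold was Klrb1c (log2 1.02, interval 0.28 to 1.79, from 28 and 37 UMIs; 7.02% of genes were past 2-fold either way, 3.33% higher). In cells with a Cd3 UMI its ratio was 0.41. With anti-CTLA-4, Klra5 (-1.40) and Klra2 (-2.89) were past 2-fold, beside 9.15% of genes either way and 5.24% lower, and Klra2, which was further from control here than with the combination, was at -1.91 without the cell with the most UMIs on each side.

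In myeloid cells, which held most Klra2 and a low level of Klrk1, both genes were lowest with the combination over the macrophage-like clusters together and in cluster 0. Klra2 over the macrophage-like clusters was 193, 109.9, 113 and 83.5 CPM, with log2 ratios to control of -0.81, -0.77 and -1.21. Inside cluster 1 it was 207, 170.4, 119 and 91.1 CPM, but inside cluster 2 it was 96.7, 54.5, 50.8 and 60.9 CPM, and inside cluster 15 the lowest library was anti-CTLA-4 (25.4 CPM on 2 UMIs) and not the combination (38.8 CPM on 3 UMIs). In cluster 0 it was 236, 237, 272 and 185 CPM, a combination ratio of -0.35. Klrk1 in macrophage-like cells was 38.9, 25.1, 36.2 and 10.3 CPM, a combination ratio of -1.91 (interval -2.33 to -1.52), and in cluster 0 it was 64.2, 49.4, 70.3 and 27.7 CPM (-1.21, interval -1.98 to -0.51). From control to combination, Klrk1 went from 34.1 to 18.2 CPM inside cluster 1 and from 26.2 to 6.71 CPM inside cluster 2. Inside cluster 4 it went from 38.2 to 8.92 CPM, and inside cluster 7 from 94.3 to 13.8 CPM. Cluster 1 held 1075 of the 1521 macrophage-like cells in control and 254 of 1868 in the combination. The part of this makeup in the lower Klra2 and Klrk1 levels was not tested. Thinned Klrk1 shares were 5.52% in cluster 0 and 2.77% in macrophage-like cells, against 0.221% of the latter for Klrc1 and 0.339% for Ncr1, and the migratory dendritic cell-like cluster 17 had Klrk1 at 175, 169, 137 and 229 CPM, highest with the combination.

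Counting how many of the receptors (7, without Klra2) a single thinned cell showed gave the same contrasts at the level of cells. In cluster 5, 3 or more receptors were seen in 69.4, 59.8, 50 and 46.8% of cells, with means of 3.13, 2.89, 2.45 and 2.35 receptors per cell. In cluster 14 the shares were 38.5, 45.7, 38.6 and 38.2%. Cells of cluster 8 with none of the 7 made up 7.11, 18.9, 29.5 and 24.3%, those of cluster 3 made up 47.4, 58.1, 62.9 and 73.7%, and those of cluster 6 made up 37.6, 56.5, 57.4 and 75.7%. In these 3 clusters the control library had the lowest share of receptor-free cells.

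**Figure D5:**
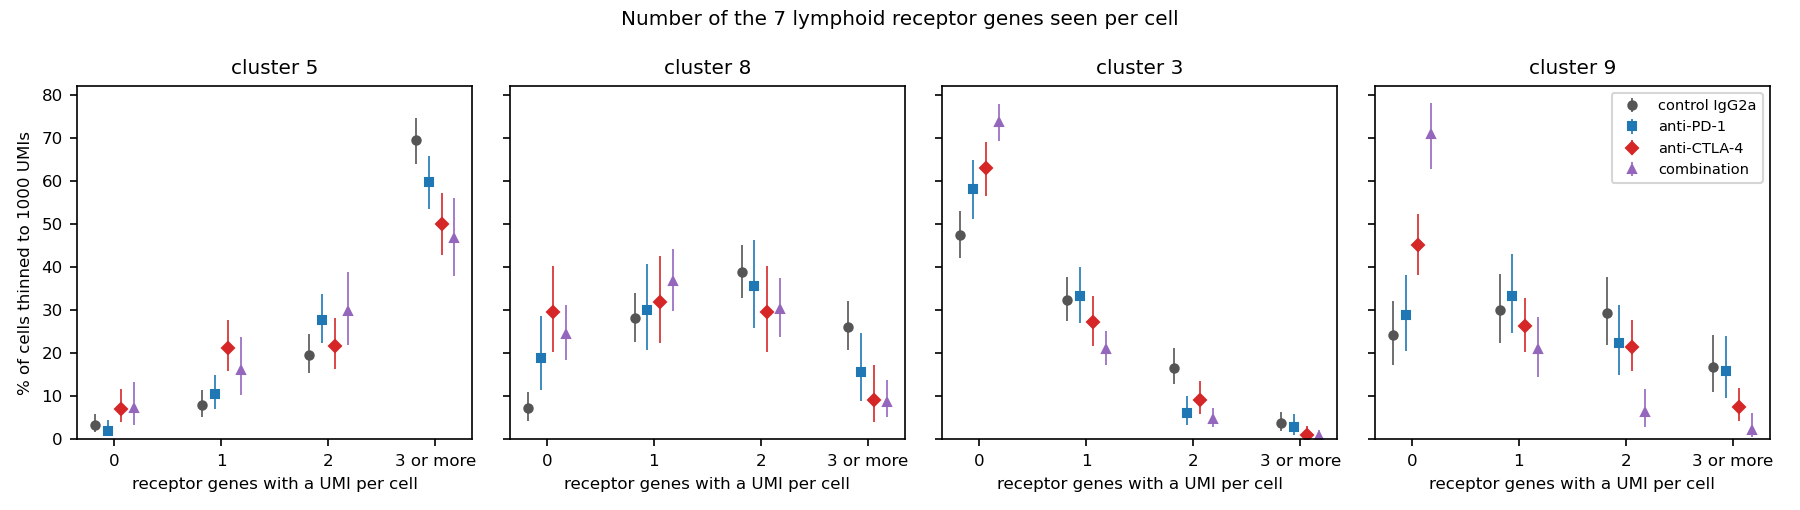
Percentage of cells, thinned to 1000 UMIs, that showed 0, 1, 2 or at least 3 of the 7 receptors other than Klra2, in clusters 5, 8, 3 and 9 and each library. In cluster 5 the share with at least 3 is 69.4% in control and 46.8% in the combination, and in cluster 9 the share with none is 24.1 and 70.8%.

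The genes whose mean levels over the 19 clusters were most like each receptor are given as a description, since clusters share libraries and were built from these genes. Ncr1 was most like Klrb1f (Pearson's r 0.95), Klra9 (0.93) and Eomes (0.93), and Klrb1c like Klra9 (0.94), Klra3 (0.94) and Klra7 (0.93). Klre1 was most like Gzma (0.96), Klrk1 like Bcl2 (0.91), and Klrd1 like Ctsw (0.95) and Klrc2 (0.93). Klrc1 was most like Nkg7 (0.99), Thy1 (0.97) and the T cell kinase gene Lck (0.97), Klra5 like Samd3 (0.96), and Klra2 like Igsf6, Sirpb1a and Pop4 (each 0.95). Among the members themselves, Klrk1 and Klrd1 were at 0.93, Ncr1 and Klrb1c at 0.91, and Klra2 was negative with each of the others (-0.46 to -0.11).

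The rest of the killer lectin-like family leaned to the NK clusters as the members did. Klra9, Klrb1f, Klra4, Klra1 and Klra7 were among the 10 leading genes of cluster 5, so this too is a description of the clusters. Of 15 other Klr genes with at least 20 UMIs (19 in the files), 13 were at least 2-fold higher in NK than in T cell clusters and none was lower; Klra6 (log2 -0.15) and Klrc2 (-0.19) were not past 2-fold. The inhibitory Ly49 gene Klra7 was 674 against 78.3 CPM (log2 3.10), Klra4 was 716 against 45.3 CPM (log2 3.98), and Klrg1, an inhibitory receptor for cadherins, was at 1.95. In combination T cells, 6 of 9 were at least 2-fold lower than in control and none higher, with Klra4 at -1.41, Klra7 at -0.90 and Klrg1 at -0.39. In cluster 5 of that library 1 of 12 was higher, Klrg1 (27.5 to 94.6 CPM on 17 and 30 UMIs), and 1 lower. With anti-PD-1, 1 of 12 was higher and none lower in cluster 5, and 2 of 11 were higher and 1 lower in T cells. With anti-CTLA-4, 2 of 13 were higher and 1 lower in cluster 5, and none of 10 was past 2-fold in T cells.

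Adaptors of the receptors divided by cell type. Of 17 adaptor and proximal signalling genes, 6 were at least 2-fold higher in NK clusters and 3 lower. Tyrobp (3.54) and Fcer1g, which encodes the Fc receptor gamma chain (1.90), were higher on the log2 scale, while Hcst, the DAP10 adaptor of NKG2D (-0.67), and Lck (-0.82) leaned to T cells within 2-fold. In combination T cells Hcst was 688 CPM against 676 CPM in control (log2 0.02) while its partner Klrk1 was lower, and Tyrobp was at -0.23.

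Of 16 other NK cell receptors, 2 were higher in NK clusters and 3 lower. Cd244 (3.29) and the Fc receptor gene Fcgr3 (1.75) were the higher ones, and the IL-2 receptor chain Il2rb was at 0.84. Of 12 ligand genes, 1 was higher and 3 lower, and the class I genes H2-D1 (-0.03), H2-K1 (-0.33) and H2-T23 (-0.49) were within 2-fold. Of 15 effector genes 4 were higher and 5 lower, with Gzma at 3.44, Gzmb at 0.72 and Ccl5 at 0.68. Of 12 genes of NK and innate lymphoid cell state 4 were higher and 4 lower, with Id2 at -0.12. In combination T cells few members of these lists were past 2-fold against control: none of 15 adaptors, 1 of 16 other NK receptors (lower), 1 of 10 ligands (higher), 2 of 15 effectors higher and 1 lower, and 2 of 11 state genes lower. These lists were chosen with earlier results of these data known, and the NK against T counts are to be read beside the 7.1 and 11% of all genes given above.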

How the data were processed

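The values deposited by the authors are whole-number UMI counts, unnormalized, for each gene in each barcode of 4 libraries, with tables of the listed cells that give 1 of 19 clusters (all CD45+ cells) or 1 of 12 (lymphoid cells). Cell Ranger, Seurat and mm10 are named in the submitters' processing notes; for versions, annotation and cell filters, the sources used here give none. Of 14493 listed cells, 2 had no matrix column. Counts were summed per cluster and library and divided by the summed total (CPM). NK against T ratios compare the means of the 4 libraries. A gene with at least 20 UMIs on both sides together was called at 2-fold or more. Intervals are exact Poisson (CPM), Clopper-Pearson (shares) and conditional binomial (ratios) at 95%, computed with Python 3.11.15, numpy 2.4.6, scipy 1.17.1 and pandas 2.3.3. No test was run, since each group has 1 library. Shares used cells thinned to 1000 UMIs, leaving out shallower ones (13840 of 14491 cells kept, and 307, 256, 198 and 124 of cluster 5). Doublets were not called; the authors' cell list was used. A cluster was named only from at least 3 detected markers and leading genes (the 10 with the largest fold among genes in at least 25% of its cells) that did not go against the name. The interval and fold code was tested on simulated data. All 8 members were named, as were the 3 genes most like each over 19 clusters (at least 200 UMIs) and up to 4 genes per list; other genes were named after their values were seen. The members, gene lists and alternatives were chosen with earlier results of these data known. Sequences are from RefSeq, GRCm38.p6.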

Additional observations from a re-analysis of the deposited data

Results flagged for a closer look

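Barcodes that the matrices hold but the table of cells leaves out numbered 127 (47, 23, 36 and 21 in the order control, PD-1, CTLA-4, combination), and the report's comparisons do not use them. Summed over these barcodes, 6 of the receptors were higher in treated libraries than in the control library. The sums rest on few barcodes: Ncr1 UMIs came from 1, 7, 13 and 5 of them and Klrc1 UMIs from 5, 5, 16 and 5. Together the barcodes held 1101580, 494504, 656498 and 335298 UMIs in the 4 libraries. Ncr1 was 5.45 CPM in control and 68.8, 145 and 188 CPM in the treated libraries in that order. Klrk1 was 20.9 CPM in control and 190.1, 196 and 104 CPM in the same order, and Klrd1 was 12.7 CPM in control and 74.8, 131.0 and 98.4 CPM. Klrc1 was 12.7 CPM in control, 62.7 CPM with anti-PD-1 and 140.1 CPM with anti-CTLA-4. Klrb1c had no UMI in control and was 22.2, 25.9 and 32.8 CPM. Klre1 was 5.45 CPM in control and 40.4, 51.8 and 29.8 CPM. Klra5 had 1 to 7 UMIs per library (1.82 CPM in control and 2.02, 10.7 and 11.9 CPM), and Klra2 went the other way, from 25.4 CPM in control to 6.07, 4.57 and 8.95 CPM. What kinds of cells these barcodes hold was not tested.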

How the results depend on the processing

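No receptor with at least 20 UMIs and past 2-fold changed sign under any alternative run. Klra2 in cluster 5 with anti-CTLA-4, on 14 UMIs, went from -1.01 to 0.63 on the log2 scale after thinning, on 4 UMIs. Of the receptors' log2 ratios, 357 stayed within the main counting interval and 73 moved out of it. The count of receptors higher in NK clusters was 5 to 6 when each library was left out in turn. With anti-PD-1 in T cells, the count of 1 became 2 after thinning (Klrb1c, Klra5), 3 without the 5% of cells with the most UMIs (Klrb1c, Klra2, Klra5), 2 with clusters weighted equally and 2 in cells with a Cd3 UMI (Klra2, Klra5 in both). With anti-CTLA-4 in T cells, 2 became 1 after thinning (Klra5), since Klra2 (-3.49, from -2.89) then had 18 UMIs. In cluster 5 with anti-CTLA-4, 0 became 1 with no minimum count and 1 with cluster 14 added (Klra2 in both). In cluster 5 with the combination, 2 became 1 after thinning, 1 with median-of-ratios scaling and 1 in cells without a Cd3 UMI. The alternative that leaves out each receptor's top cell, like others on single cells, was chosen after seeing the data, and the cause of these moves was not tested. Ncr1 NK to T ratios rose to 5.24 after thinning. Klra2 and Klra5 rest on few cells and Klrb1c in T cells on few UMIs, so depth limits these values. No paired analysis was possible because each group has 1 library.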

Other observations

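Members of the lectin-like family other than the 8 receptors were also found outside lymphoid cells. Klra17 was 198 CPM in cluster 16, which is plasmacytoid dendritic cell-like, and Klrb1b was 62.9 CPM in cluster 0 and 39.6 CPM in the macrophage-like clusters. Klrk1 was 112 CPM on average in the conventional dendritic cell-like cluster 11, with 158 CPM in control and 58.0 CPM in the combination library.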
